A study of Mus musculus with 24 samples.

Results

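Measurements are described for 31 genes of cholesterol and fatty acid synthesis and of the sterol sensor that controls them, as measured in mouse CD4+ T cells at rest and after restimulation. The members are a list of genes named for their place in this pathway; the rule has no threshold on a measured value, but the list was drawn up with earlier results of these data known. Where several probe sets name only that gene, the brightest on average over the 24 arrays was used. A probe set is the group of oligonucleotides on an Affymetrix array that reports a transcript. Of the 31 members, 30 had such a probe set, among 18193 genes in all, and Acat2, a cytosolic acetoacetyl-CoA thiolase, has no value here.

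The CD4+ T cells came from mice on a C57BL/6 background that carry the 2D2 transgenic T cell receptor, which recognises a myelin antigen, so all 8 groups share this transgene. Cells were primed for 48 h on plates coated with antibodies to CD3 and CD28 under Th1 conditions, with the solvent DMSO, with Control-768, or with I-BET-762 at 0.25 or 0.5 µM. After 2 days of expansion off the plates, RNA was taken from cells left unstimulated (resting) or after 4 h of renewed stimulation through CD3 and CD28 (activated), with 3 arrays for each of the 8 combinations. I-BET-762 blocks the bromodomains by which BET proteins read acetylated chromatin, and Control-768 served as its control compound. The sources used here do not give the concentration of Control-768, or whether compounds were present during restimulation. The resting cells are thus recently primed and expanded cells and not naive ones. The labels call the replicates biological, and nothing says whether they came from separate animals, so the p-values below measure the spread between these samples.

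Cells make cholesterol from acetyl-CoA through mevalonate, the isoprenoid farnesyl diphosphate, squalene and lanosterol. The transcription factors SREBP-1 and SREBP-2 are made as membrane precursors; when sterols are low, the escort protein SCAP carries them from the endoplasmic reticulum to the Golgi, where proteases release the active part, and the INSIG proteins hold SCAP back when sterols are high. T cells that are stimulated to grow and divide raise this programme to supply membranes, as is known from other work.

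The markers of CD4 T cells were bright in both states: over the 8 groups, the summed intensity of Cd3d, Cd3e, Cd3g, Cd4, Cd28 and Thy1 ranged from 30260 to 34629 in resting and from 26678 to 30247 in activated cells. The 4 measured B cell markers and both measured NK cell markers had mean intensities under 64 in both states, as did 5 of 6 myeloid markers. Between the states, 5 of the 6 CD4 T cell markers fell in the mean over the compounds, all but Thy1, with Cd4 from a mean of 912 to 493 (-0.86). As 3 averages against 3 (a fit explained below), 2 of the 6 fell. Over all genes 23.9% fell and 19.1% rose in the mean, and 13.7% and 10.8% as 3 averages against 3. Of 6 dendritic cell markers, 4 were under 64 in resting cells and 3 in activated cells. Of these 6, the MHC class II gene H2-Ab1, the brightest, fell by 0.82 (means of 1735 and 1043) but with no compound taken alone, while Cd74, the invariant chain, rose by 1.39 and with each compound alone. Zbtb46 rose by 0.79, and as 3 averages against 3, 1 of the 6 rose and 0 fell. Cd8b1, of the CD8 list, rose by 0.45 (means of 462 and 644), and 0 of the 2 CD8 markers passed as 3 averages against 3. The part of other cell types in the results was not tested.

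After restimulation most of the members were lower. Averaged over the 4 compounds, 22 of the 30 measured members (73.3%) fell between resting and activated cells and 2 (6.67%) rose, while 6 did not pass the test. Over all 18193 genes 23.9% fell and 19.1% rose. The median change of the members was -0.59 on the log2 scale and that of all genes was -0.02. Calls are at an adjusted p under 0.05 in limma with Benjamini-Hochberg adjustment over all genes, and changes are differences of log2(intensity + 16), given ± SE, from 12 activated and 12 resting arrays. Within a state the arrays of 1 replicate number deviate together, so these 12 arrays are not independent. When the 4 compounds were averaged within each state and number, leaving 3 averages against 3, 16 members were lower and 1 higher, against 13.7% and 10.8% of all genes. The adjusted p was then 0.00781 for Mvd, 0.0132 for Dhcr7, 0.0185 for Lss and 0.0225 for Hmgcs1. The values given below for these genes, from 12 against 12 arrays, are far smaller because they count those arrays as independent. In these bulk samples fewer cells of a kind and less RNA per cell cannot be told apart.

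**Figure D1:**
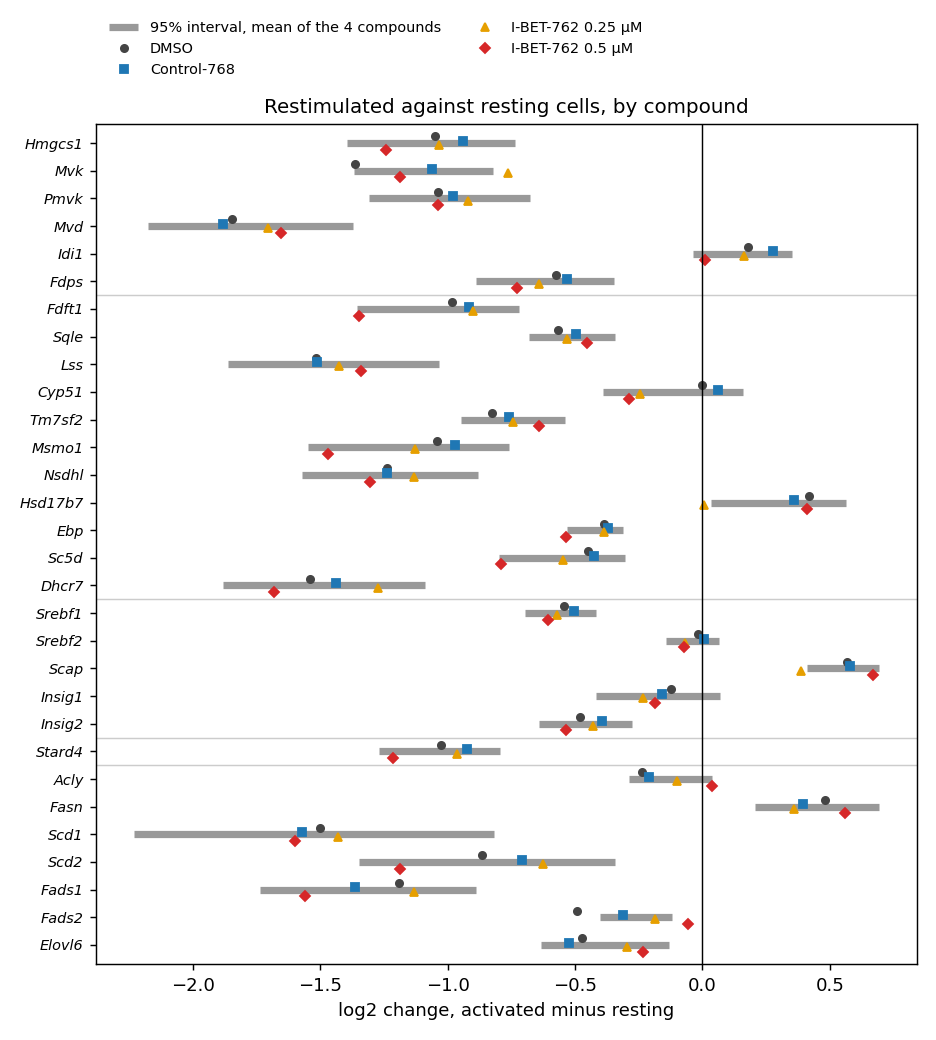
Change from resting to activated cells for the 30 measured members, on the log2 scale (x axis), one gene per line, in order of role: mevalonate pathway, squalene and sterol enzymes, SREBP and its regulators, sterol transport, fatty acid genes. Symbols are the 4 compounds and grey bars the 95% interval of their mean; most genes lie left of 0, with Mvd at -1.77 at the far left, and Scap at 0.55 and Fasn at 0.45 lie to the right.

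In the mevalonate pathway, 5 of the 6 measured enzymes fell and 0 rose, with a median change of -1.03. Mvd, the decarboxylase that makes isopentenyl diphosphate, read between 457 and 828 on the 12 resting arrays (median 758) and between 84.1 and 288 on the 12 activated arrays (median 226). The states did not overlap, and Mvd fell by 1.77 ± 0.19 (adjusted p = 2.55e-07), to 0.293 times its resting level. Mvk, mevalonate kinase, was dimmer, between 113 and 240 at rest (median 168) and between 44.8 and 95.2 after restimulation (median 71.9). It too did not overlap and fell by 1.09 ± 0.13 (adjusted p = 8.25e-07).

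Hmgcs1, the synthase that makes HMG-CoA for the pathway, was among the brighter members, at 4427 to 6769 on resting and 1391 to 4254 on activated arrays, without overlap. It fell by 1.07 ± 0.16 (adjusted p = 1.17e-05). Pmvk, phosphomevalonate kinase, fell by 0.99 ± 0.15, and Fdps, the synthase of farnesyl diphosphate, by 0.62 ± 0.13 (adjusted p = 0.000496). For Fdps the adjusted p was 0.0752 with 3 averages against 3. Idi1, the isomerase that follows Mvd, stood apart from its neighbours: it read 2171 to 3925 on resting and 2404 to 3797 on activated arrays, and its change was 0.16 ± 0.09 (adjusted p = 0.191).

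Of the 11 squalene and sterol enzymes, 9 fell and 0 rose, with a median change of -0.74. Dhcr7, the reductase of the last step to cholesterol, read between 480 and 1116 at rest (median 953) and between 145 and 458 after restimulation (median 287). It fell by 1.48 ± 0.19 (adjusted p = 1.99e-06). Lss, which closes squalene epoxide to lanosterol, read 559 to 1517 at rest (median 1300) and 227 to 584 in activated cells (median 447). Its states overlapped through the resting array of 0.5 µM I-BET-762 numbered 3, at 559, and it fell by 1.45 ± 0.20 (adjusted p = 4.48e-06).

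Nsdhl, a sterol dehydrogenase that takes part in removing the methyl groups of lanosterol, read 919 to 2006 at rest (median 1428) and 329 to 837 in activated cells (median 637). It fell by 1.23 ± 0.17 (adjusted p = 3.72e-06), without overlap. Tm7sf2, a sterol reductase, read 266 to 550 at rest (median 435) and 166 to 403 in activated cells (median 225), with overlap, and fell by 0.74 ± 0.10 (adjusted p = 2.81e-06). Ebp, a sterol isomerase, changed less but very evenly. Its 12 resting arrays read 1595 to 1852 (median 1681) and its 12 activated arrays 1051 to 1440 (median 1256), and it fell by 0.42 ± 0.05 (adjusted p = 1.63e-06).

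The other enzymes of this branch that passed were Msmo1, a sterol methyl oxidase (-1.15 ± 0.19), Fdft1, squalene synthase (-1.04 ± 0.15), Sc5d, a sterol desaturase (-0.55 ± 0.12), and Sqle, which makes squalene epoxide (-0.51 ± 0.08). Sc5d had an adjusted p of 0.0583 with 3 averages against 3. Cyp51, the demethylase that acts on lanosterol, was at -0.12 ± 0.13 (adjusted p = 0.524), with intensities of 1876 to 4245 at rest and 2023 to 3430 after restimulation. Hsd17b7, a sterol ketoreductase, was at 0.30 ± 0.13 (adjusted p = 0.0655), with medians of 461 and 500.0. With the replicate number as a block within each state, which takes number differences out of the error, Hsd17b7 passed as higher (adjusted p = 0.00155). That block pairs no resting with activated arrays. As 3 averages against 3, the adjusted p of Hsd17b7 was 0.333. Mvd and Nsdhl thus fell, while Idi1, Cyp51 and Hsd17b7, enzymes of the same pathway, did not pass the test.

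The promoters of these enzymes were read from RefSeq sequences on GRCm38.p6, from 250 bases before to 50 bases after each annotated start. Promoters were found for 24 of the members, 32 in all since some genes have several starts. CCAAT, the box bound by NF-Y, a partner of SREBP, was present on either strand in 65.6% of the 32 member promoters and in 37.4% of all 32851 promoters of the same length. GGGCGG, the Sp1 box, was present in 78.1% and 35.7%. The sterol regulatory element TCACNCCAC, searched on both strands, was present in 1 member promoter, that of Hmgcs1, and in 1.24% of all promoters. These are matches of letters in a window and not binding sites shown by these data. All 9 genes for squalene and sterol enzymes with a promoter in the table held a CCAAT box.

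The 150 bases before the start are shown for 5 enzymes that fell and then for 3 of the same pathway that did not pass the test, to set the boxes of both kinds side by side. Each runs 5′ to 3′ along the gene's strand, in lower case, with CCAAT or its reverse complement ATTGG and the sterol regulatory element in capitals. The windows are Hmgcs1 at chr13:119690201-119690350 (plus strand), Mvd at chr8:122443423-122443572 (minus), Lss at chr10:76531455-76531604 (plus), Nsdhl at chrX:72918371-72918520 (plus), Tm7sf2 at chr19:6067851-6068000 (minus), Idi1 at chr13:8885456-8885605 (plus), Cyp51 at chr5:4104698-4104847 (minus) and Hsd17b7 at chr1:169969206-169969355 (minus).
Hmgcs1: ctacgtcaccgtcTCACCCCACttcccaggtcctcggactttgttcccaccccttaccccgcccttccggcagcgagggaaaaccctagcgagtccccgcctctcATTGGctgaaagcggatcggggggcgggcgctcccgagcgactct
Mvd: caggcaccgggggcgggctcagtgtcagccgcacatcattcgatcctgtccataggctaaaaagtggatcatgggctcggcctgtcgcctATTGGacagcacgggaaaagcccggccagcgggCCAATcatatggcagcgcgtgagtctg
Lss: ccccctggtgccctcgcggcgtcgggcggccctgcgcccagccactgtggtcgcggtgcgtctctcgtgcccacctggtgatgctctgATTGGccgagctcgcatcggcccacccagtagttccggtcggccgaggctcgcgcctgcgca
Nsdhl: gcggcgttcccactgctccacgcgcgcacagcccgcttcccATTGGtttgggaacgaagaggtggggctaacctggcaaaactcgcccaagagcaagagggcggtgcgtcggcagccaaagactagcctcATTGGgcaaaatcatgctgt
Tm7sf2: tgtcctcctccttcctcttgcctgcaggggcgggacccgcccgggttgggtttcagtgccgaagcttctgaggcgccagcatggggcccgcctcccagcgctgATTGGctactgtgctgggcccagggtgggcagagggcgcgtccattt
Idi1: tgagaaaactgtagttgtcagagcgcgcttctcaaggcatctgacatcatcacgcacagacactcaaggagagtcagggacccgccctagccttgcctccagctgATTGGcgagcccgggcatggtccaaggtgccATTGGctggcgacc
Cyp51: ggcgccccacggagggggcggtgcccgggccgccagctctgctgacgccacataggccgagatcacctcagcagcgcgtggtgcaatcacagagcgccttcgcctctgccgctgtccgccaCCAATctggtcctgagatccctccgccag
Hsd17b7: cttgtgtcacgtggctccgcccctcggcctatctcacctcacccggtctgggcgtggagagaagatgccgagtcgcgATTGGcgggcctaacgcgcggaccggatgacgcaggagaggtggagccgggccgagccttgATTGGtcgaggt
The sterol regulatory element of Hmgcs1 starts 137 bases before the start of the gene and overlaps none of the CCAAT boxes. In these windows Mvd, Nsdhl, Idi1 and Hsd17b7 each hold 2 CCAAT boxes, and Hmgcs1, Lss, Tm7sf2 and Cyp51 each hold 1. These 8 windows are examples and were not compared by a test.

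Of the 5 genes for SREBP and its regulators, 2 fell, 1 rose and 2 did not pass the test, with a median change of -0.17. Srebf1 encodes SREBP-1, the main SREBP of fatty acid synthesis. On resting arrays it read 2461, 2731 and 2606 with DMSO, 2349, 2700.1 and 2690.4 with Control-768, 2595, 2515 and 2871 with 0.25 µM and 2511, 2643 and 2681 with 0.5 µM I-BET-762. On activated arrays it read 1671, 2051 and 1636 with DMSO, 1852, 1989 and 1609 with Control-768, 1908, 1806 and 1639 with 0.25 µM and 1932, 1934 and 1337 with 0.5 µM. Every activated array was below every resting array, and Srebf1 fell by 0.56 ± 0.07 (adjusted p = 9.74e-07), by a similar amount with each compound (-0.51 with Control-768, -0.54 with DMSO, -0.57 and -0.61 with the lower and higher concentration of I-BET-762).

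Srebf2 encodes SREBP-2, the main SREBP of cholesterol synthesis, and showed no such step. Its resting arrays read 2034 to 2475 (median 2181) and its activated arrays 1948 to 2379 (median 2171). The change was -0.04 ± 0.05, with a 95% interval of -0.14 to 0.06 (adjusted p = 0.581).

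Scap, which encodes the escort of both SREBPs, moved the other way. Resting arrays read 1845, 1993 and 1946 with DMSO, 1845, 1902 and 1745 with Control-768, 2119, 2046 and 1795 with 0.25 µM and 1929, 2281 and 1610 with 0.5 µM I-BET-762. Activated arrays read 2912, 2528 and 3187 with DMSO, 2765, 2565 and 2910 with Control-768, 2830, 2335 and 2658 with 0.25 µM and 2869, 2730 and 3687 with 0.5 µM. The lowest activated array was above the highest resting array, and Scap rose by 0.55 ± 0.07 (adjusted p = 1.19e-06). It passed the test as higher with Control-768, DMSO and 0.5 µM I-BET-762, and was at 0.39 ± 0.14 with 0.25 µM (adjusted p = 0.0605).

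The INSIG genes differed in level between states by less than the leading enzymes. Insig2 fell by 0.46 ± 0.09 (adjusted p = 0.000194), with intensities of 540 to 1011 at rest (median 664) and 419 to 548 in activated cells (median 495). Insig1, itself a known target of SREBP, read 1797 to 3339 at rest (median 2972) and 1948 to 3172 in activated cells (median 2332), and was at -0.17 ± 0.12 (adjusted p = 0.256). With the replicate block within each state it passed as lower (adjusted p = 0.0211). As 3 averages against 3 the adjusted p of Insig1 was 0.563. Its difference between states was -0.50, -0.17 and 0.15 within the numbers 1, 2 and 3. Stard4, a sterol transfer protein of the cytosol, read 2156 to 2919 at rest (median 2704) and 708 to 1680 in activated cells (median 1353). It did not overlap between states and fell by 1.03 ± 0.11 (adjusted p = 3.17e-07).

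**Figure D2:**
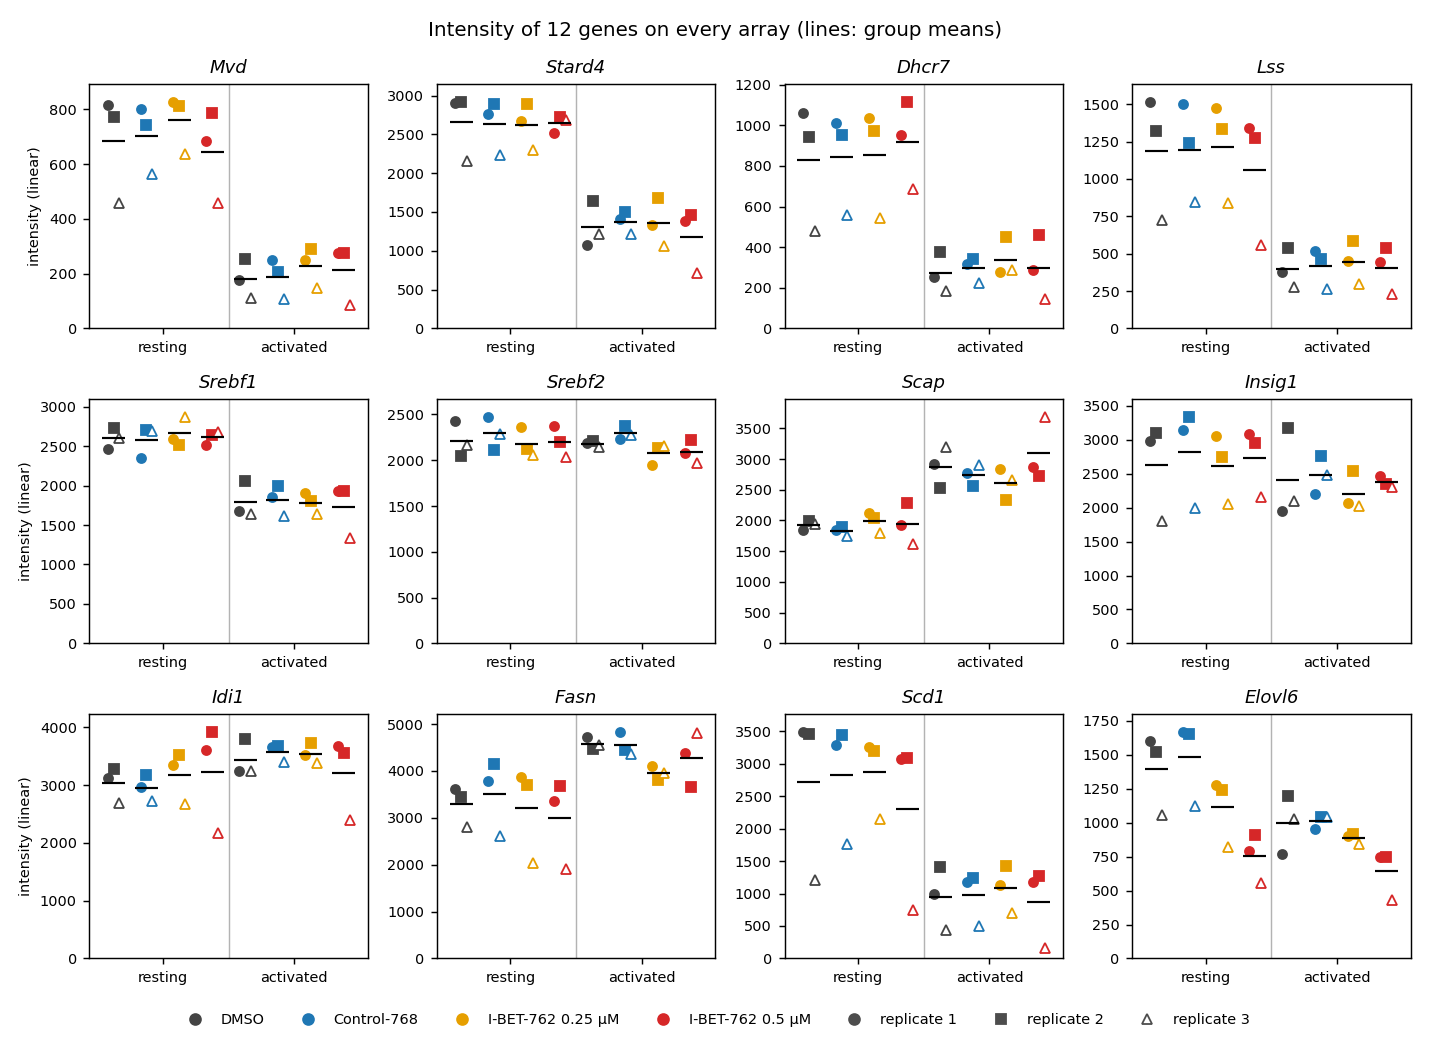
Intensity on a linear scale (y axis) of 12 genes on all 24 arrays, resting groups left of the grey line and activated groups right of it. Colours are the compounds, symbols the replicate numbers and black lines the group means; open triangles, the arrays numbered 3, are the lowest of all 8 groups for Mvd, Lss, Idi1 and Scd1, and Scap alone among these genes shows every activated array above every resting array.

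Of the 7 fatty acid genes, 5 fell, 1 rose and 1 did not pass the test, with a median change of -0.38. As 3 averages against 3, 1 of the 7 fell, Fads1, and 0 rose. Scd1, a desaturase that makes oleate and palmitoleate, read 753 to 3489 at rest (median 3138) and 157 to 1422 in activated cells (median 1147). It was at -1.52 ± 0.34 (adjusted p = 0.000894), with the widest interval of the members, -2.23 to -0.82. Scd2, a second desaturase of this kind, fell by 0.85 ± 0.24 (adjusted p = 0.00679). With 3 averages against 3, Scd1 (adjusted p = 0.0756) and Scd2 (adjusted p = 0.145) did not pass. Fads1, a desaturase of polyunsaturated fatty acids, fell by 1.31 ± 0.20 (adjusted p = 1.99e-05), from a median of 525 to a median of 187.

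Fads2, its partner in the same pathway, was at -0.26 ± 0.07 by the chosen probe set (adjusted p = 0.00344; 0.0624 with 3 averages against 3, and 0.0718 without the arrays numbered 2). Its other probe sets gave -1.02 and -0.95. Fasn, the fatty acid synthase, rose by 0.45 ± 0.12 (adjusted p = 0.00351), from a median of 3532 to 4410, but its adjusted p was 0.132 with 3 averages against 3. Acly, which makes cytosolic acetyl-CoA from citrate, was at -0.13 ± 0.08 (adjusted p = 0.216) and passed as lower with the replicate block within each state (adjusted p = 0.0129). It did not pass with 3 averages against 3 (adjusted p = 0.556). Elovl6, which lengthens palmitate, was at -0.38 ± 0.12 (adjusted p = 0.0133). That call was lost with 3 averages against 3 (adjusted p = 0.167), without the arrays numbered 1 (0.243) or 2 (0.114), and with the mean of all probe sets (0.107).

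Among the members, 9 had every activated array below every resting array (Dhcr7, Ebp, Fads1, Hmgcs1, Mvd, Mvk, Nsdhl, Srebf1 and Stard4), and 1, Scap, had every activated array above. Over all genes, 7.24% were separated in this way as lower and 7.37% as higher. A fall of at least 2-fold was seen for 11 of the 22 members that fell: Dhcr7, Fads1, Fdft1, Hmgcs1, Lss, Msmo1, Mvd, Mvk, Nsdhl, Scd1 and Stard4. No share of all genes was taken for a fall of this size. Of the members past the threshold, 28 other probe sets were on the array, and 24 of them had the sign of the chosen one. The other 4, of Elovl6, Fads1 and Fdft1, had mean intensities of at most 83.8.

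The fall was seen with each compound taken alone. With Control-768, 14 members (46.7%) fell, against 11.2% of all genes, and Scap rose, against 8.89%. With DMSO, 15 of the 30 members fell, against 11.7% of all genes, and Scap rose, against 9.15%. With I-BET-762 at 0.25 µM, 11 members (36.7%) fell, against 7.41% of all genes, and 0 rose, against 7.07%. At 0.5 µM, 18 of the 30 members fell, against 12.8% of all genes, and Scap rose, against 10.5%. There were 11 members lower with all 4 compounds: Dhcr7, Ebp, Hmgcs1, Lss, Mvd, Nsdhl, Pmvk, Sqle, Srebf1, Stard4 and Tm7sf2. By sign alone, 23 members were below 0 with all 4 compounds, 4 were above 0 (Fasn, Hsd17b7, Idi1 and Scap) and 3 were mixed (Acly, Cyp51 and Srebf2). For these rules over all 4 compounds no share of all genes was taken, so the counts describe the members only.

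These counts within a compound rest on 3 arrays against 3 and moved with single arrays. With Control-768, 6 members passed without resting replicate 1 and 4 without activated replicate 3, against 15. With DMSO, 9 passed without resting replicate 1, 10 without activated replicate 1 and 9 without activated replicate 3, against 16. At 0.25 µM, 4 passed without resting replicate 1 or resting replicate 2, 5 without activated replicate 1 and 3 without activated replicate 3, against 11. At 0.5 µM, 8 passed without activated replicate 3, against 19. The share of all genes called moved too: in full it was 20.1% with Control-768, 20.9% with DMSO, 14.5% at 0.25 µM and 23.3% at 0.5 µM, and without the single arrays named here it was between 7.59% (0.25 µM without activated replicate 3) and 15.2%. Without all arrays numbered 1, 0 members passed with Control-768, with DMSO and at 0.25 µM, and 7 at 0.5 µM, against 3.56%, 2.37%, 0.649% and 11.1% of all genes. Without those numbered 2 the counts were 2, 6, 0 and 9, against 6.87%, 8.62%, 3.96% and 14.9%. Without those numbered 3 they were 22, 25, 21 and 20, against 27%, 27.9%, 21.7% and 22.2%. With the replicate number as a block within each state, 23 members passed with Control-768, 26 with DMSO and 21 at 0.25 µM. The shares of all genes were 30.6%, 31.4% and 27%. Between states this block takes differences between numbers out of the error and pairs no resting with activated arrays. In the mean over the compounds the range was narrower, with 22 to 27 members past the threshold when an array or a replicate number was left out. That fit counts all arrays of a state as independent, although those of the same number deviate together. The narrow range can therefore overstate how steady the result was. As 3 averages against 3, 16 members were lower and 1 higher, against 13.7% and 10.8% of all genes. Compared within each replicate number, 22 members were lower in activated cells in all 3 numbers. No share of all genes was taken for this rule, so the count describes the members only.

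On average over the enzymes, the arrays numbered 3 stood lower in every group. Averaged over the 17 measured mevalonate and sterol enzymes, the deviation of these arrays from their group mean was -0.42 to -0.26 in resting and -0.62 to -0.21 in activated groups. On the arrays numbered 1 and 2 it lay between -0.02 and 0.34. The 7 fatty acid genes deviated on the arrays numbered 3 by -0.50 to -0.30 at rest and by -0.76 to -0.20 in activated cells. Of the 30 members, 16 were below the group mean on the array numbered 3 in all 8 groups, as were 6.47% of all genes: Cyp51, Dhcr7, Fads1, Fdft1, Fdps, Hmgcs1, Idi1, Lss, Msmo1, Mvd, Nsdhl, Pmvk, Sc5d, Scd1, Scd2 and Sqle. Idi1 and Cyp51, which did not pass between states, moved with the other enzymes between replicates, while Ebp (-0.03 on average), Fads2 (-0.03), Srebf1 (-0.07) and Scap (0.01) did so little. Insig2 went the other way, with a mean deviation of 0.13 and a value below the group mean in 1 of the 8 groups.

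The lowest array of all was activated 0.5 µM I-BET-762 replicate 3, where Scd2 read 1530 against 8323 and 9046 on the other arrays of its group. Scd1 read 157 there against 1180 and 1272, and Fads1 read 43.1 against 220 and 222. Beside these values, Gapdh read higher at its 3′ end than at its 5′ end, which bears on RNA quality, by 0.15 to 0.31 on the log2 scale on the activated arrays numbered 3 and by -0.02 to 0.10 on the other activated arrays. For beta-actin this difference was 0.23 to 0.37 and 0.19 to 0.29, with 0.23 on the lowest array. In resting cells that of Gapdh was -0.06 to -0.002 on the arrays numbered 3 and -0.03 to 0.09 on the others. The mean of the measured cell cycle genes deviated by -0.54 to 0.04 on the activated arrays numbered 3 and by -0.09 to 0.07 on the resting ones. The value of -0.54 was that of the lowest array. The part of RNA quality or of the cell cycle in the values of these genes was not tested.

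**Figure D3:**
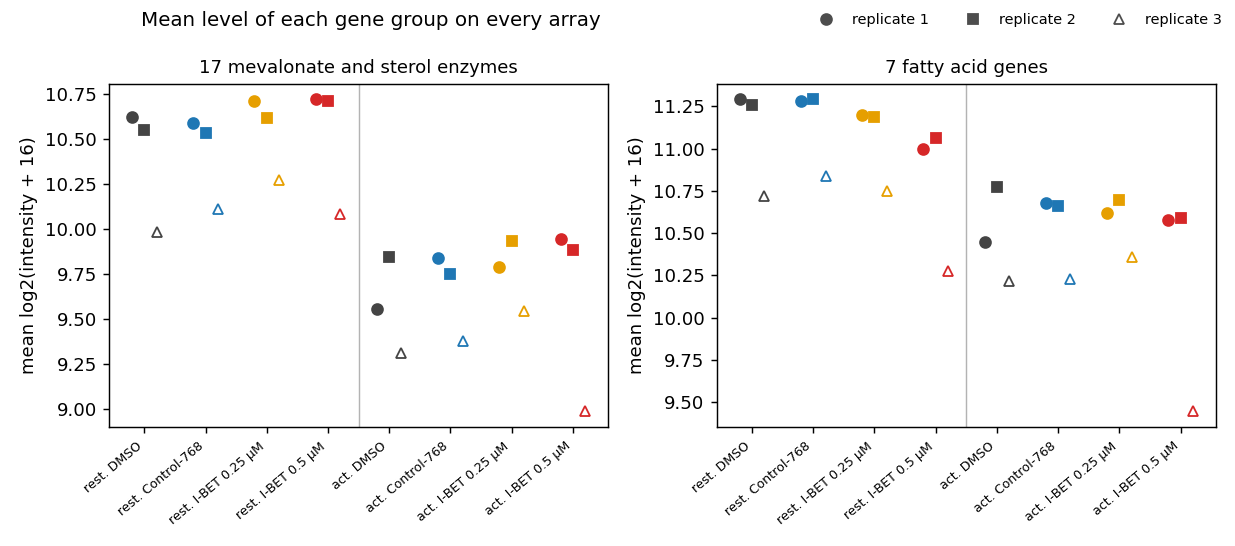
Mean log2(intensity + 16) on each array (y axis) of the 17 measured mevalonate and sterol enzymes (left) and the 7 fatty acid genes (right), by group. Colours are the compounds and symbols the replicate numbers; the sterol enzymes lie between 9.98 and 10.72 at rest and between 8.99 and 9.94 in activated cells, and the open triangles, the arrays numbered 3, are lowest in each group.

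The enzymes moved together from array to array. For deviations from the group means over the 24 arrays, which share processing and replicate number, Pearson's r of each sterol enzyme with the mean of the others had a median of 0.89, from 0.39 for Ebp to 0.98 for Msmo1. Idi1 was at 0.87, Cyp51 at 0.94 and Hsd17b7 at 0.73. Scd1 (0.98) and Fads1 (0.95) followed the sterol enzymes as closely, while Scap (-0.20) and Insig2 (-0.38) had r below 0. Among genes outside all lists, those most like the mean of the sterol enzymes over the 24 arrays, which include the step between states, were Ccdc91, Ccdc90b, Supt3, Hps1, Exoc7, Themis2, Mpnd, Spata24, Dynlt3 and Gyg, with r of 0.954 to 0.98. Their r for the deviations was 0.908 to 0.965. These values are a description, with no test.

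Few members passed the test between I-BET-762 and the controls. In resting cells, 0.5 µM I-BET-762 against Control-768 had 1 of the 30 members past the threshold as lower, Elovl6, against 0.912% of all genes, and 0 as higher, against 0.473%. Elovl6 read 1669, 1655 and 1124 on the Control-768 arrays and 795, 906 and 557 on those of 0.5 µM I-BET-762, without overlap. With DMSO it read 1600.3, 1523 and 1053, and with 0.25 µM I-BET-762 1279, 1241 and 820. The arrays numbered 3 were the lowest in each of these groups, and within each number the order was the same, with 0.25 µM between the controls and 0.5 µM. Against Control-768, Elovl6 was at -0.97 ± 0.24 at 0.5 µM (adjusted p = 0.048), and at -0.41 ± 0.24 at 0.25 µM (adjusted p = 1).

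The call of Elovl6 was close to the threshold. It was lost without resting Control-768 replicate 1 (adjusted p = 0.209) or 2 (0.201), without resting 0.5 µM replicate 1 (0.0935) or 3 (0.26), with an added constant of 1 (0.0754), with the mean of all probe sets (0.137) and with only the compared groups in the fit (0.285). With the replicate block within each state the adjusted p was 0.00115. A further probe set of Elovl6 gave -1.11 and a dim one -0.25. Against both controls, both concentrations together gave -0.65 ± 0.17 in resting cells (adjusted p = 0.0577; 0.0017 with the block).

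In activated cells the same comparison of 0.5 µM with Control-768 had 0 members past the threshold in limma, against 0.748% of all genes, and 2 at an unadjusted p under 0.05. Elovl6 read 954, 1039 and 1039 on the Control-768 arrays and 749.6, 750.2 and 433 on those of 0.5 µM, again without overlap. With DMSO it read 772, 1199 and 1026, and with 0.25 µM 902, 917 and 841. The difference from Control-768 was -0.68 ± 0.24 at 0.5 µM, with an interval of -1.18 to -0.18 (adjusted p = 0.336; 0.0234 with the block). Whether the change of Elovl6 differed between the states was tested with both concentrations against both controls, and the difference was 0.23, with an interval of -0.27 to 0.73 (adjusted p = 1).

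Tm7sf2 had the largest positive difference of the members for both concentrations against both controls, in either state. In resting cells it read 369, 438 and 266 with DMSO, 364, 381 and 293 with Control-768, 453, 472 and 550.2 with 0.25 µM and 453, 539 and 433 with 0.5 µM. In activated cells it read 229, 177 and 169.7 with DMSO, 221, 208 and 166 with Control-768, 298, 257 and 307 with 0.25 µM and 403, 298 and 218 with 0.5 µM. Within each state the arrays of I-BET-762 were mostly above those of the controls, and the lowest of them lay just below the highest control array. In activated cells both concentrations against both controls gave 0.55 ± 0.14 (adjusted p = 0.0561), and in resting cells 0.45 ± 0.14 (adjusted p = 0.127). With the replicate block within each state both passed as higher (adjusted p = 0.00822 and 0.0237).

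**Figure D4:**
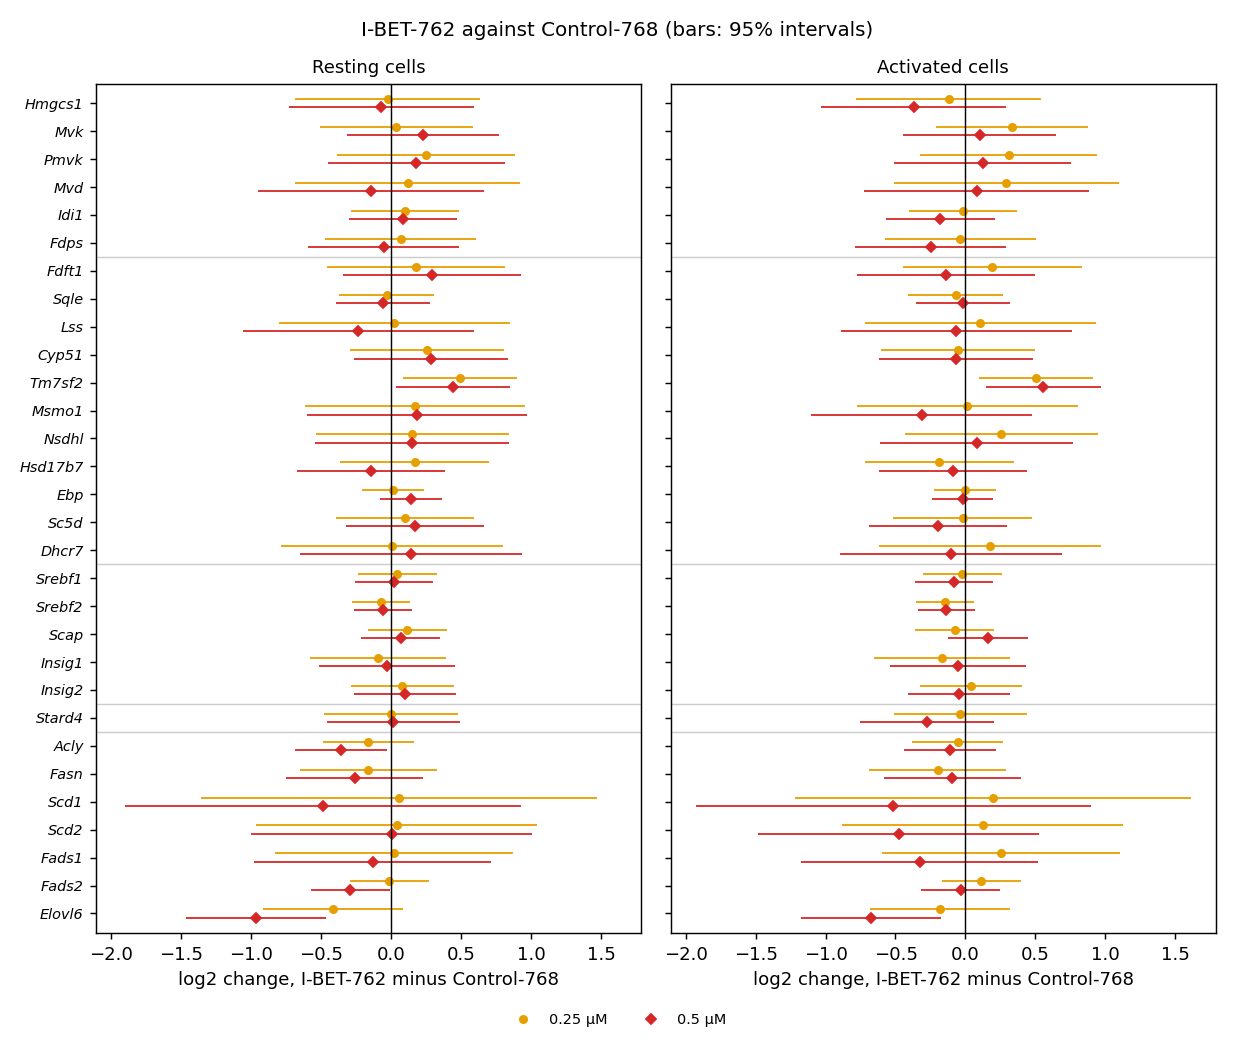
Difference between I-BET-762 and Control-768 on the log2 scale (x axis) for the 30 measured members in resting (left) and activated cells (right), with 95% intervals. Circles are 0.25 µM and diamonds 0.5 µM; most intervals include 0, Elovl6 lies left of 0 at 0.5 µM (-0.97 at rest and -0.68 activated), and Tm7sf2 lies right of 0 in all 4 comparisons.

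With both concentrations against both controls, 0 of 30 members passed in limma in either state, against 1.85% of all genes at rest and 1.19% in activated cells. At an unadjusted p under 0.05 there were 3 members at rest and 2 in activated cells. No share of all genes was taken at an unadjusted p. With the block, 4 passed at rest, against 5.68% of all genes: Elovl6 and Tm7sf2, and Acly (-0.25, adjusted p = 0.0112) and Cyp51 (0.29, adjusted p = 0.0224). In activated cells 3 passed with it, against 4.19%: Tm7sf2, Elovl6 (-0.41, adjusted p = 0.0469) and Mvk (0.32, adjusted p = 0.0377). For 0.5 µM against Control-768 at rest the block, which called 5.54% of all genes, added Acly (-0.36, adjusted p = 0.0115). Acly read 5457, 5145 and 4117 with Control-768 and 4249, 4322 and 2974 with 0.5 µM, so that within each number the I-BET-762 array was the lower, while the groups overlapped through Control-768 replicate 3.

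At 0.25 µM against Control-768, 0 members passed in limma in either state, against 0.066% of all genes at rest and 0.0715% in activated cells. In each state 1 member was at an unadjusted p under 0.05. Between the concentrations, 0 members passed at rest, against 0.066% of all genes, and 0 in activated cells, against 0.011%. At an unadjusted p under 0.05 there was 1 member at rest and 0 in activated cells. The lowest values between concentrations in activated cells were those of Scd1 (-0.71, interval -2.12 to 0.70), Scd2 (-0.60, -1.60 to 0.40) and Fads1 (-0.58, -1.43 to 0.27), the genes that were low on activated 0.5 µM replicate 3. For a typical member the 95% interval of a difference of 3 arrays against 3 reached 0.52 to either side. Smaller differences could therefore be missed. Since that interval is not adjusted for the number of genes, somewhat larger differences could be missed as well. A p above the threshold does not show that the groups were alike.

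Control-768 and DMSO were compared as the controls. In limma 0 members and 0% of all genes passed in either state, with 0 members at an unadjusted p under 0.05. The members' differences ran from -0.09 (Mvk) to 0.15 (Scd1) at rest and from -0.16 (Fads1) to 0.21 (Mvk) in activated cells. The size of the fall on restimulation was also compared between compounds. For both concentrations against both controls the difference between the states ran from -0.30 (Cyp51) to 0.28 (Fads2), and 0 members and 0% of all genes passed, with 0 members at an unadjusted p under 0.05. The same held for each concentration against Control-768, where the typical interval reached 0.73 to either side.

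Other genes of these pathways were read in the mean over compounds, where 23.9% of all genes fell and 19.1% rose, and as 3 averages against 3, where 13.7% fell and 10.8% rose. Of 11 other SREBP targets with a probe set, 4 fell and 3 rose, and 4 and 2 as 3 averages against 3; counts this small in both directions do not set the list apart. Lpin1, a phosphatidate phosphatase, fell by 2.19 ± 0.26 (adjusted p = 6.46e-07), more than any member. Acss2, an acetyl-CoA synthetase, fell by 1.47, the elongase Elovl5 by 0.71, and Npc1, a sterol exporter of lysosomes, by 0.64. Those that rose were Tmem97, an NPC1 binding protein, by 0.72, the malic enzyme Me1 by 0.83 and the acyltransferase Gpam by 0.50; these 3 are named after their values were seen.

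Of 15 genes of SREBP processing and sterol-regulated degradation, 8 rose and 2 fell, and 3 and 2 as 3 averages against 3. Ube2g2, a ubiquitin-conjugating enzyme of endoplasmic reticulum degradation, rose by 0.74 ± 0.06, the ubiquitin ligase Syvn1 by 0.70 ± 0.09 and the COPII vesicle GTPase Sar1a by 0.64 ± 0.06. The COPII coat gene Sec24d fell by 0.47. Of 11 genes of the isoprenoid branch, 4 rose and 1 fell, and 3 and 0 as 3 averages against 3, with Nus1, a subunit of dolichol synthesis, at 0.68, the protease Zmpste24 at 0.51, and Rce1 and Icmt, which process prenylated proteins, at 0.43 and 0.21.

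Of 12 genes of sterol efflux, storage and the LXR response, 3 rose and 4 fell, and 2 and 3 as 3 averages against 3, again few in either direction. The lysosomal lipase Lipa fell by 1.13 ± 0.08 (adjusted p = 6.12e-10) and the sterol exporter Abcg1 by 0.66 ± 0.09. Of the 3 that rose, Sult2b1, a sterol sulfotransferase, and Apoe, an apolipoprotein, were dim, with resting medians of 12.5 and 19.4 and activated medians of 41.5 and 38.5. At intensities near the added constant of 16 the size of a log2 difference is set largely by that constant, so none is given for these 2. The other gene that rose was Abca1, also a sterol exporter, named after its values were seen. With DMSO alone it was at 0.98 ± 0.44 (adjusted p = 0.133).

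Of 13 genes of fatty acid oxidation, the opposite pathway, 12 fell and 0 rose in the mean over compounds, with a median of -0.44. As 3 averages against 3, 4 fell, and within compounds 4 fell with Control-768, 4 with DMSO, 0 at 0.25 µM and 4 at 0.5 µM. Over all genes 11.2%, 11.7%, 7.41% and 12.8% fell with these compounds. Cpt2 fell by 1.11 ± 0.14, Etfdh by 0.83 ± 0.13 and Cpt1a by 0.82 ± 0.12, which encode parts of the carnitine shuttle and of electron transfer, and the dehydrogenase gene Acadvl by 0.33 ± 0.06. Of 15 cell cycle genes, 11 fell and 0 rose, with a median of -0.33. As 3 averages against 3, 5 fell, and within compounds 4, 4, 5 and 8 in the same order, beside the same shares of all genes. Among them Cenpf, of the kinetochore, was at -1.42 ± 0.12, the spindle factor Tpx2 at -1.09, the checkpoint kinase Bub1 at -1.05 and the mitotic kinase Plk1 at -0.66. The part of either list's change in that of the members was not tested.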

How the data were processed

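The deposited table holds 1 intensity per probe set and array on a linear scale, for 45101 probe sets; the authors' summarising and normalising of the arrays are not given in the sources used here. Per the labels' protocols, RNA was amplified for 2 rounds before biotin labelling. A platform annotation gave 1 symbol to 34945 probe sets, several to 932 and none to 9160, and 64 controls were left out. Intensities were changed to log2(intensity + 16) from the deposited values, with the brightest probe set per gene. All 24 arrays entered 1 fit of 8 group means in limma 3.58.1 (R 4.3.3), with 16 residual and 3.58 prior degrees of freedom, two-sided tests and Benjamini-Hochberg adjustment over 18193 genes, in 18 comparisons. Precision is limited by how many arrays there are.

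The members and lists were chosen with earlier results of these data known. All members are named, with levels for SREBP genes, the 10 members of smallest adjusted p between states and any past the threshold between compounds. Of other lists, up to 4 genes of smallest adjusted p are named, beside those said to be named after their values were seen.

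Within each state, deviations from group means of same-numbered samples correlated in every pair (r from 0.155 to 0.699), so the number pairs samples within a state. Between states r was lower, at 0.034 to 0.186 for number 1, -0.05 to 0.08 for number 2 and 0.044 to 0.155 for number 3. The fit of 3 averages against 3 does not pair the numbers between states. The block treats these number effects as fixed. Alternatives changed the constant, scaling, filter, probe set, block, weights, groups and arrays; the fit was tested on simulated data.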

Additional observations from a re-analysis of the deposited data

How the results depend on the processing

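Counts are of members past the threshold. Between resting and activated cells, leaving out an array or a replicate number gave 0 to 22 with Control-768 (15 in full), 0 to 25 with DMSO (16), 0 to 21 with 0.25 µM (11), 7 to 20 with 0.5 µM (19) and 22 to 27 in the mean of the compounds (24). The cause was not tested, and fewer arrays were compared. The replicate block over both states gave 18 at 0.25 µM; the replicate block within each state gave 23 with Control-768, 26 with DMSO and 21 at 0.25 µM; array weights gave 20 at 0.25 µM; only the compared groups gave 2 at 0.5 µM. For 0.5 µM against Control-768 at rest (1), the constant 1, the mean of all probe sets and only the compared groups gave 0, the block within each state 2, and leave-outs 0 to 2. In activated cells (0), that block and array weights each gave 1. For both concentrations against both controls (0), quantile normalization and median centring gave 2 at rest and 1 in activated cells, leaving out dim genes 1 and 1, the block over both states 2 and 1, the block within each state 4 and 3, array weights 1 and 1, and leave-outs 0 to 2 in both states. Other than those named, the comparisons of compounds had 0 members past the threshold under every alternative run, and the replicate block changed no other count by over 1.5 times.

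Between states, median centring of arrays moved the share of calls that were higher from 44.5% to 56.9% of all genes called in the mean of the compounds, from 44.3% to 58.0% with Control-768, from 43.8% to 57.8% with DMSO and from 45.3% to 55.7% at 0.5 µM, with 22 members lower and 4 higher in the mean. At rest it moved that share from 34.1% to 50.1% for 0.5 µM against Control-768 and from 33.8% to 52.5% for both concentrations, and in activated cells from 30.9% to 41.6%. No member past the threshold changed sign under any alternative. Of other list genes in the mean of the compounds, Ggps1 was at -0.29, Top2a at 0.13 and Aurka at 0.16 with the mean of all probe sets, each with its sign turned, and Nceh1 ran from -0.21 to 0.27 when a replicate number was left out. Counts of all genes called at 0.5 µM against Control-768 at rest were 252 in full, 1007 with the replicate block within each state, 849 with array weights and 29 with only the compared groups, and in activated cells 136, 613, 528 and 34. Between states at 0.5 µM they were 4238 in full and 1228 with only the compared groups, and in the mean of the compounds 7820 in full and 4446 as 3 averages against 3. The difference between states for both concentrations, with 0 genes in full, had 15 with that block. The average over compounds as 3 against 3 was chosen after seeing the data. Signal limits Mvk most, at a mean intensity of 120.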
